A study of Mus musculus with 2 samples.

Results

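The nuclei described here carried RNA of Lhx6 and Sox6, a pair of transcription factors of interneurons that arise in the medial ganglionic eminence (MGE). A nucleus was taken when it had at least 3 unique molecular identifiers (UMIs, counted RNA molecules) summed over the inhibitory genes Gad1, Gad2 and Slc32a1, at least 1 UMI of Lhx6, at least 2 of Sox6, and 0 of Zic1 and Pdgfra. Only barcodes with 500 or more genes, 800 or more UMIs and a mitochondrial share below 5% were considered. The rule was met by 116 of 25957 kept nuclei. The values of those 7 genes chose the nuclei, so they are given as a description and support nothing.

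The study profiled nuclei of mouse hippocampus in 2 droplet libraries (10x Genomics 3' V3), under a title on BDNF and TrkB signalling in neurogenesis and Alzheimer's disease. The knockdown-labelled library came from Bcas2F/F mice injected with AAV2/9-Syn-cre, a virus that expresses Cre recombinase from the neuronal synapsin promoter. The control library came from mice injected with AAV-vehicle. Its title gives Bcas2F/F and its genotype label gives WT, and the labels do not settle which holds; the sources used here give no age, sex or number of mice per library. The rule selected 111 of 13429 kept nuclei (0.827%, 95% exact interval 0.680 to 0.995) in the knockdown-labelled library, and only 5 of 12528 (0.0399%, 0.0130 to 0.0931) in the control library. With 1 library per group there is no replicate check and no test was made, and every interval here covers counting error only.

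Interneurons of the MGE lineage migrate from the ventral forebrain into cortex and hippocampus, where Lhx6 is needed for their specification and migration and Sox6, which acts after Lhx6, for their positioning and maturation. In the hippocampus the lineage gives parvalbumin (Pvalb) basket and axo-axonic cells, which inhibit pyramidal cells at the soma and the axon initial segment, and somatostatin (Sst) cells, many of which inhibit dendrites. Some neurogliaform and Ivy cells also belong to it. Adarb2 marks most interneurons of the caudal ganglionic eminence, and Zic1 marks inhibitory neurons of septal and other subcortical origin.

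The libraries differed as wholes. In the knockdown-labelled library there were 16693 barcodes and 90594923 UMIs, with a median of 6094 UMIs per kept nucleus, and in the control library 12621 barcodes and 41781481 UMIs, with a median of 2577. Nuclei gated as oligodendrocytes (no UMI of the 3 inhibitory genes, at least 5 UMIs of myelin genes together) made up 13.2% of kept nuclei (1771 of 13429) in the knockdown-labelled library, against 75.2% (9423 of 12528) in the control. All inhibitory-gated nuclei numbered 2126 and 161 in that order of libraries, so the Lhx6 Sox6 nuclei were 5.22% of them (4.31 to 6.25) in the knockdown-labelled library, against 3.11% (1.02 to 7.10) in the control. The 2 shares of inhibitory nuclei have overlapping counting intervals, while the 2 shares of all kept nuclei do not. A wider set, the Pvalb- and Sst-led clusters 1, 2 and 4 of a clustering of all inhibitory nuclei without the 7 rule genes, was 19.1% of inhibitory nuclei (407 of 2126, 17.5 to 20.9) in the knockdown-labelled library, against 5.59% (9 of 161, 2.59 to 10.3) in the control, with intervals that do not overlap. Fewer cells of a type and less RNA per nucleus cannot be told apart where a nucleus is recognised by a few UMIs. The libraries had 56 barcodes in common, 45 of them kept in both and 0 among the Lhx6 Sox6 nuclei.

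The selected nuclei were deep. They had a median of 10667 UMIs (5109 to 27772) in the knockdown-labelled library, while the 5 control nuclei had 19416, 32487, 11544, 10676 and 14106 UMIs. In the knockdown-labelled library Lhx6 itself gave 162 UMIs over the 111 nuclei, with a lowest value of 1, a median of 1 and a highest of 5 per nucleus. Sox6 gave 634 UMIs, from 2 to 19 per nucleus with a median of 5. The Lhx6 threshold therefore stood at the median. Just inside it, 71 nuclei had exactly 1 Lhx6 UMI, and just outside it, 199 nuclei met every other condition with 0. Nxph1, which encodes a secreted ligand of neurexins, had a UMI in 91.6% of the nuclei just inside and 85.4% of those just outside. The transcription factor gene Satb1 had one in 70.4% just inside and 74.4% just outside. Just inside the Sox6 threshold were 22 nuclei with 2 UMIs, and just outside it 24 with 1. For the inhibitory genes, 14 nuclei had a sum of 3 and 11 had a sum of 2. Among nuclei that met every other condition, 6 had exactly 1 Zic1 UMI and 6 had exactly 1 Pdgfra UMI. Those with more UMIs of either were also kept out and were not counted here. Adarb2 was detected in all 6 nuclei with 1 Pdgfra UMI.

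Most, but not all, of the nuclei had markers of the label that the rule did not use, though these markers are not particular to it. In the knockdown-labelled library Nxph1 was detected in 101 of the 111, with 0 to 51 UMIs and a median of 13. Kcnmb2, an auxiliary subunit of large-conductance potassium channels, was detected in 98, with 0 to 39 UMIs and a median of 6. Kcnc2, which encodes the Kv3.2 channel of fast-spiking cells, was detected in 110 nuclei, with a median of 14 UMIs. In Adarb2-gated nuclei of the same library, Nxph1 was in 43.6%, Kcnmb2 in 45.2% and Kcnc2 in 69.3%. In the clustering of all inhibitory nuclei, Nxph1 was in 97.4% of cluster 9, where Lhx6 was in 1.30%. Kcnmb2 was in 79.8% of cluster 12, led by Vip. These 3 genes therefore do not set the lineage apart alone. The MGE-associated factors Maf and Satb1 were found in 92 and 81 nuclei, most of the 111. Chat, which marks cholinergic neurons, had 0 UMIs in the 111 nuclei, which allows up to 2.70% of nuclei with a UMI and does not limit the nuclei that express it. Of the 5 control nuclei, the first went against the label: it had 0 UMIs of Nxph1, Kcnmb2, Satb1 and Maf, with 9 of Adarb2, 18 of the serotonin receptor gene Htr2c and 4 of Cnr1. The other 4 had UMIs of all the first 4 genes and 0 of those 3.

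Free RNA sets a floor under such shares. Oligodendrocyte-gated nuclei of the same library (median 2122 UMIs) had a UMI of Slc17a7, a transporter gene of glutamatergic neurons, in 36.9% of nuclei, of Nxph1 in 8.75%, of Sst in 6.66% and of Pvalb in 0.960%. To compare at equal depth, every nucleus was thinned to 2000 UMIs, which kept all 111 Lhx6 Sox6 nuclei, all 619 Adarb2-gated nuclei (same inhibitory gate, at least 2 Adarb2 UMIs, no Lhx6) and 1046 oligodendrocyte-gated nuclei. Nxph1 then remained detected in 87.4% of Lhx6 Sox6 nuclei (79.7 to 92.9), against 30.0% of Adarb2-gated (26.5 to 33.8) and 6.50% of oligodendrocyte-gated nuclei (5.08 to 8.17). For Kcnmb2 the thinned shares were 60.4% in Lhx6 Sox6 nuclei, against 23.9% in Adarb2-gated and 1.72% in oligodendrocyte-gated nuclei. Slc17a7 was at 17.1% in Lhx6 Sox6 nuclei, against 33.4% in oligodendrocyte-gated nuclei, and Adarb2 at 19.8% and 16.0% in the same order. Neither was spread evenly. In the 28 knockdown-labelled nuclei of sub-cluster 1, 1 of 6 sub-clusters of the Lhx6 Sox6 nuclei, the thinned shares were 42.9% for Adarb2 (24.5 to 62.8) and 39.3% for Slc17a7 (21.5 to 59.4). In the 83 others they were 12.05% (5.93 to 21.0) and 9.64% (4.25 to 18.1), no higher than the oligodendrocyte-gated shares. Thinning does not equalise the part of free RNA, which can be smaller in deeper nuclei. Before it, the medians were 10667 UMIs in Lhx6 Sox6 nuclei and 2122 in oligodendrocyte-gated nuclei. Background and expression of Adarb2 and Slc17a7 therefore cannot be told apart in those 83.

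**Figure D1:**
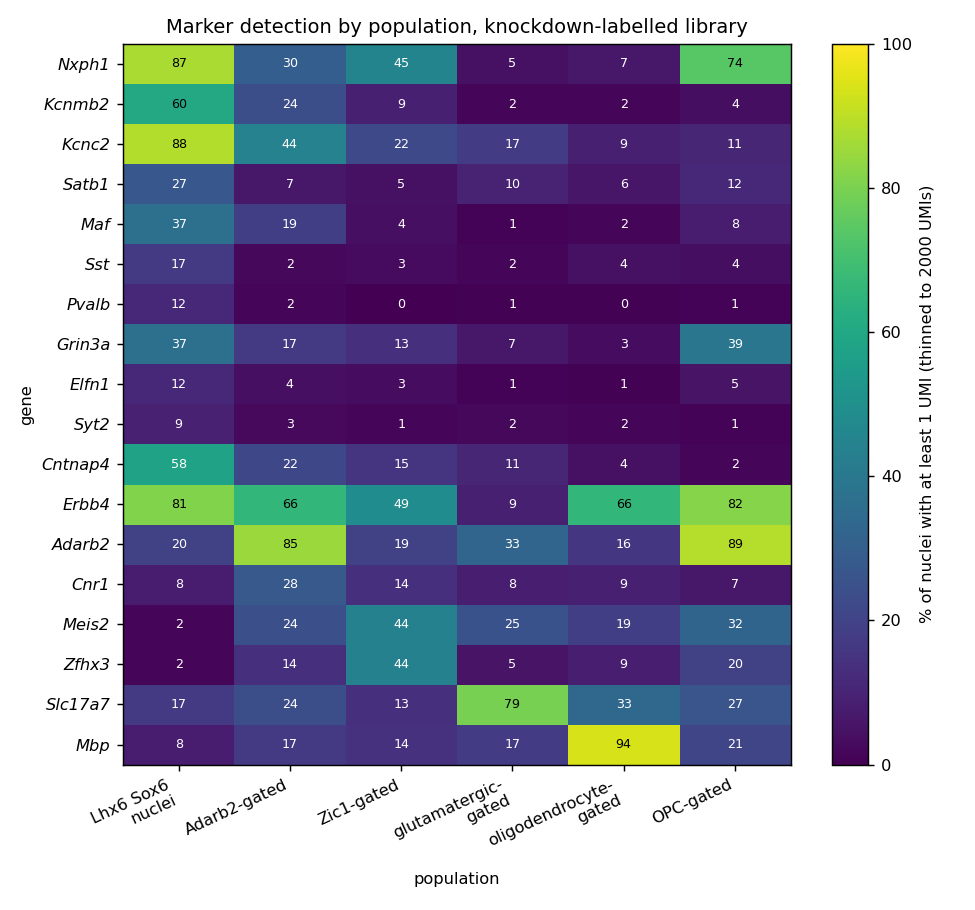
Percent of nuclei with at least 1 UMI of each gene (rows) in 6 gated populations (columns) of the knockdown-labelled library, after thinning every nucleus to 2000 UMIs; the colour scale runs from 0 to 100%. Nxph1, Kcnmb2, Kcnc2 and Cntnap4 stand highest in the Lhx6 Sox6 nuclei, where Meis2 and Zfhx3 were both at 1.80%.

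Sst and Pvalb, the peptide and the calcium-binding protein that split the lineage in cortex and hippocampus, were not part of the rule. Sst was detected in 45 of the 111 knockdown-labelled nuclei (40.5%, 31.3 to 50.3), with 0 to 8 UMIs per nucleus and 119 in all. Pvalb was detected in 34 (30.6%, 22.2 to 40.1), with 0 to 6 UMIs and 69 in all. At 2000 UMIs per nucleus the shares were 17.1% (10.6 to 25.4) for Sst and 11.7% (6.39 to 19.2) for Pvalb, against 4.40% and 0.478% in oligodendrocyte-gated nuclei, so both stood above the background share. The genes were mostly apart: 39 nuclei (35.1%) had Sst without Pvalb, 28 (25.2%) Pvalb without Sst, 6 (5.41%) both and 38 (34.2%) neither. Among the 5 control nuclei, 4 had Pvalb (1, 3, 2 and 2 UMIs) and the other had 2 UMIs of Sst.

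**Figure D2:**
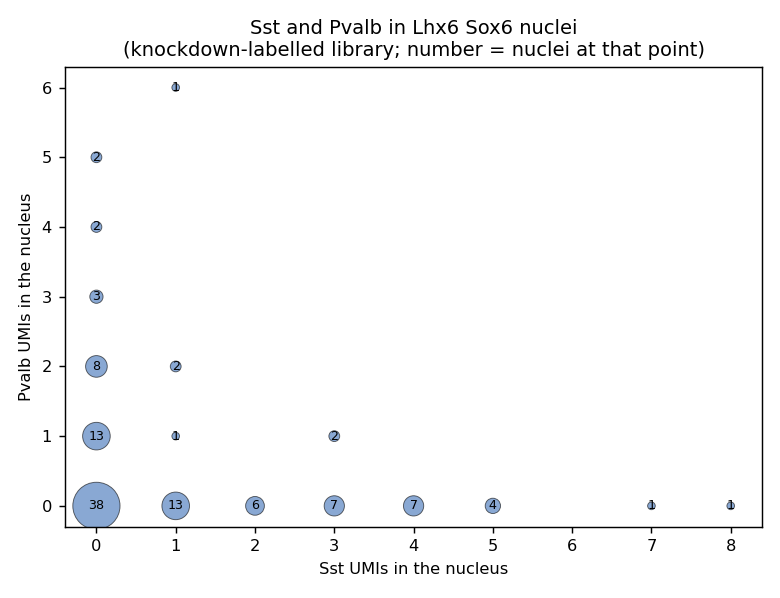
Pvalb UMIs (vertical axis) against Sst UMIs (horizontal axis) in each of the 111 Lhx6 Sox6 nuclei of the knockdown-labelled library; each circle is a combination of values, its area and number give the nuclei there. Most nuclei lie on an axis, 38 lie at the origin and 6 lie off both axes.

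The nuclei with Sst and without Pvalb differed from those with Pvalb and without Sst in single genes, while others of the same kinds were level. Levels are given in CPM, the UMIs of a gene scaled to the summed UMIs of the same nuclei. Log2 ratios are of the 39 Sst nuclei over the 28 Pvalb nuclei with 95% counting intervals. A single UMI placed a nucleus in a group, so free RNA can have placed some, and nuclei of sub-cluster 1 were not left out. Adarb2 stood at 320 CPM in Sst nuclei and 146.8 CPM in Pvalb nuclei, and Slc17a7 at 93.1 and 118 CPM. Grin3a, an NMDA receptor subunit that is a known Sst-cell gene, stood at 601.7 CPM in Sst nuclei and 40.3 CPM in Pvalb nuclei (log2 ratio 3.85, 3.13 to 4.79). Reln, the secreted matrix protein reelin, stood at 623.2 and 69.1 CPM in the same order (3.15, 2.57 to 3.84). Elfn1, a postsynaptic protein that shapes the excitatory inputs of Sst cells, stood at 81.2 and 11.5 CPM (2.67, 1.33 to 4.77). The potassium channel gene Kcnd3 (Kv4.3) had a log2 ratio of 2.82 (2.03 to 3.82). All of these were higher in the Sst nuclei. Other receptor and channel genes had intervals that include 0: Gria2 at 0.06 (-0.12 to 0.23), Grin1 at 0.06 (-0.27 to 0.40), Cacna1a at 0.01 (-0.21 to 0.22) and Kcnn2 at -0.01 (-0.60 to 0.59).

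Release genes went both ways. Syt2, the calcium sensor of fast transmitter release in Pvalb basket cells, had 1 UMI in the Sst nuclei and 55 in the Pvalb nuclei (log2 ratio -5.48, -11.38 to -3.51). Unc13c was higher in the Sst nuclei (3.19, 1.49 to 6.60, with 2 UMIs in the Pvalb nuclei), as was Cplx2 (1.09, 0.08 to 2.28). Cplx1 (-0.69, -1.54 to 0.12) and Vamp1 (-0.60, -1.90 to 0.63) had intervals that include 0. Erbb4, the neuregulin receptor, stood at 1270.3 CPM in Sst nuclei and 5103.2 CPM in Pvalb nuclei (-2.005, -2.15 to -1.87). Kcnc1 (Kv3.1) had a log2 ratio of -1.60 (-2.04 to -1.20), Kcna1 (Kv1.1) -1.46 (-2.28 to -0.74), Cntnap4, a neurexin-family gene of GABA synapses, -1.38 (-1.70 to -1.06) and Gabrd, the delta subunit of extrasynaptic GABA receptors, -2.75 (-5.33 to -1.17). Kcnc2 differed less (-0.52, -0.69 to -0.36), and Nxph1 and Kcnmb2 were close to equal at 0.19 and 0.33. The axon-guidance ligand gene Slit2 was lower in Sst nuclei, at 76.4 CPM against 428.9 CPM in Pvalb nuclei.

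Clustering of the 116 nuclei of both libraries gave 6 sub-clusters, and 4 of them could be named from marker lists of hippocampal interneuron types. A name needed at least 3 markers of exactly 1 type, each in 25% of the nuclei and 0.5 above the other nuclei on the log2 scale, and at least 50% of that type's markers. This naming rule was set after a clustering had been seen. Sub-clusters 2 and 4 were Pvalb basket-like with 27 and 14 nuclei, together 35.3% of the 116. Sub-clusters 3 and 6 were Sst-like with 24 and 11 nuclei, together 30.2%. Sub-clusters 1 and 5, with 29 and 11 nuclei, stayed unnamed. The sub-clusters were defined by these genes, so their values describe them and test nothing.

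Sub-cluster 2 had Syt2 in 18 of its 27 nuclei (222.8 CPM, against 38.2 CPM in the other nuclei) and Pvalb in 15, with Mypn, Pdzrn3 and Adamtsl5 among its leading genes. It held 0 UMIs of Grin3a and of Elfn1. Sub-cluster 4 had Pvalb in 8 of its 14 nuclei and Tac1, the precursor gene of substance P, in 8 (66.0 CPM, against 20.6 CPM in the others). Sp9, a transcription factor gene of developing interneurons, led it with a UMI in 9 of 14 nuclei, against 5 of the 102 others, and Lamb1, a laminin subunit, was in 10. Erbb4 stood at 8649.6 CPM in sub-cluster 4 and 5665.1 CPM in sub-cluster 2, against 288.4 CPM in sub-cluster 6. Both basket-like sub-clusters had Cntnap4 in every nucleus.

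Sub-cluster 3 had Sst in 20 of its 24 nuclei, Grin3a in 23 and Reln in 22. Synpr, which encodes the synaptic vesicle protein synaptoporin, was in all 24 (917.8 CPM, against 176.0 CPM in the others). Sub-cluster 6 had Sst in 9 of its 11 nuclei and Grin3a and Reln in all 11. Lama4, a laminin subunit, was in 7 of the 11. The Sst-like sub-clusters differed from each other in Cntnap4, which stood at 42.7 CPM in sub-cluster 6 and 358.5 CPM in sub-cluster 3, and in Kcnmb2, at 341.8 and 1226.1 CPM in that order. Pvalb had 0 UMIs in sub-cluster 6 and 7 UMIs in sub-cluster 3.

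**Figure D3:**
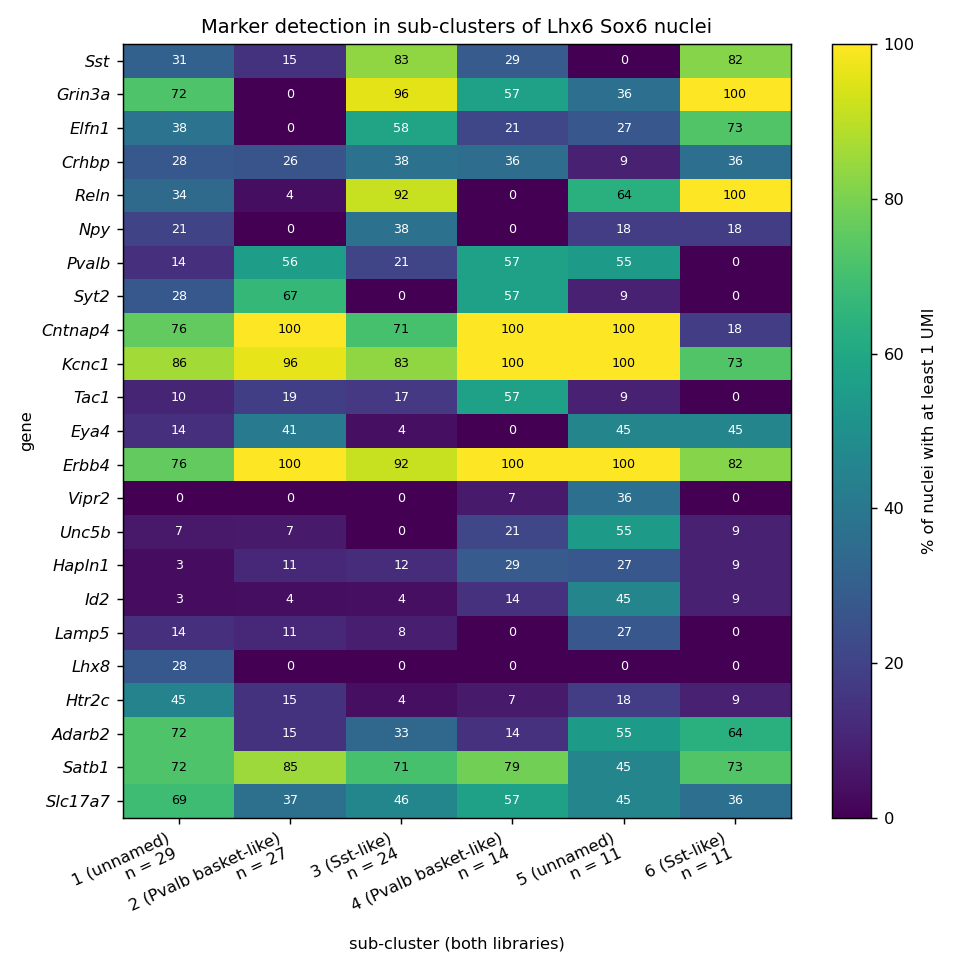
Percent of nuclei with at least 1 UMI of each marker (rows) in the 6 sub-clusters of the 116 Lhx6 Sox6 nuclei of both libraries (columns, with names and numbers of nuclei), without thinning. Sst, Grin3a and Reln are frequent in sub-clusters 3 and 6, Pvalb in 2, 4 and 5, Syt2 in 2 and 4, and Lhx8 was detected in sub-cluster 1, with 0 nuclei in the others.

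Sub-cluster 5 met the marker count of 3 types at once: Pvalb, Cntnap4, Kcnc1 and Eya4 of basket cells, Vipr2, Unc5b and Rasgrp1 of axo-axonic cells, and Lamp5, Id2 and Nos1 of neurogliaform and Ivy cells. Mctp2 was in all 11 of its nuclei (387.3 CPM, against 7.16 CPM in the others), and Fgf13, a regulator of sodium channels, in all 11 with 4 to 46 UMIs. In the clustering of all inhibitory-gated nuclei without the 7 rule genes, 7 of its 11 nuclei fell into cluster 1, led by Mypn and Pvalb, and 3 into cluster 6, led by Hapln1 and Id2.

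Sub-cluster 1 went against the label. Its 29 nuclei, the first control nucleus among them, were led by Ndst4, Htr2c, Trpc7, Khdrbs2 and Lhx8, a factor of subpallial cholinergic and projection neurons. Lhx8 was in 8 of the 29 and in 0 of the 87 others. Nxph1 and Kcnmb2 were each in 18 of the 29 (62.1%), while Nxph1 was in every nucleus of the other 5 sub-clusters. Adarb2 gave 382 UMIs there over 21 nuclei, with 878.1 CPM against 142.7 CPM in the other nuclei. Slc17a7 was in 20 nuclei (264.3 CPM, against 58.1 CPM in the others). Its median depth was 14556 UMIs, and Scrublet, a program that scores likely doublets, marked 14 of the 29, against 18 in all 116. The part of doublets in its profile was not tested. In the clustering of all inhibitory nuclei, 13 of the 29 fell into cluster 3 (led by Klhl1 and Rmst) and 6 into cluster 5, where 92.8% of nuclei had Slc17a7. Counts with and without sub-cluster 1 are given beside the comparisons.

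Of the 111 knockdown-labelled nuclei, 34 had Xist without Y-linked UMIs, 34 had Y-linked UMIs without Xist, 41 had both and 2 had neither. The same clustering of all inhibitory nuclei also shows what the rule leaves out. Clusters 1, 2 and 4 (led by Mypn and Pvalb, by Sst and Lypd6, and by Sst and Npy) held 416 nuclei, 407 labelled knockdown and 9 from the control, and 88 of the 116 Lhx6 Sox6 nuclei (75.9%) lay in them. The Lhx6 Sox6 nuclei were 21.2% of these clusters, and Lhx6 had a UMI in 168 of the 416 nuclei (40.4%).

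Against Adarb2-gated nuclei, the Lhx6 Sox6 nuclei had higher levels of the MGE-associated factors, of Kv3-type potassium channels, of a set of adhesion genes and of Sst and Syt2, and lower levels of Cnr1, Vip and several homeobox genes. Both populations are from the knockdown-labelled library, with 1292791 and 5941784 summed UMIs. Of 8777 genes with at least 20 expected UMIs, 150 (1.71%) were at least 2-fold higher and 346 (3.94%) at least 2-fold lower, 5.65% in either direction, with a median log2 ratio of -0.02. Without sub-cluster 1, the numbers were 156 and 415 of 7173 genes, and 145 of the 150 and 326 of the 346 stayed past 2-fold. Adarb2-gated nuclei were not a uniform type: Meis2, a factor of striatal and subcortical neurons, was detected in 35.5% of them.

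Of 16 tested transcription factors of MGE lineage and interneurons outside the rule, 3 were at least 2-fold higher, Satb1 and Maf among them, and 3 lower (Prox1, Dlx6os1 and Npas1), with a list median of -0.30. Satb1, which is required for the maturation and survival of MGE interneurons, had 0 to 9 UMIs per Lhx6 Sox6 nucleus (median 2) and stood at 182.6 CPM, against 40.9 CPM in Adarb2-gated nuclei. Its log2 ratio was 2.16 (1.89 to 2.42), the highest among genes outside the rule with at least 200 UMIs and detection in 20% of nuclei. Maf stood at 282.3 CPM in Lhx6 Sox6 nuclei and 117.1 CPM in Adarb2-gated nuclei (1.27, 1.08 to 1.45). The levels of both were higher in the Lhx6 Sox6 nuclei by more than the counting intervals.

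Of 28 tested potassium channel genes, Kcnmb2, Kcnc1 and Kcnc2 were at least 2-fold higher and Kcnq5, Kcnt2 and Kcnip4 lower, with a median of -0.20. Kcnc2 stood at 1450.4 CPM in Lhx6 Sox6 nuclei and 520.4 CPM in Adarb2-gated nuclei (log2 ratio 1.48, 1.40 to 1.56), and Kcnmb2 at 626.6 and 234.6 CPM in the same order (1.42, 1.29 to 1.54). Kcnc1 had a log2 ratio of 1.09 (0.91 to 1.26). Among 21 sodium, HCN and calcium channel genes, only Cacna2d2, an auxiliary calcium channel subunit, was at least 2-fold higher (1.48, 1.28 to 1.67), and Cacna1e, Cacnb2, Cacna2d1 and Scn3b were lower. Of 28 glutamate receptor genes, the AMPA receptor subunit gene Gria3 (1.09), Grin3a (1.21) and the kainate receptor auxiliary gene Neto2 (1.11) were higher, and Cnih3, Grm8 and Shisa9 lower. Of 18 GABA and glycine receptor genes, 0 were at least 2-fold higher, and Gabrg1 and Gabra2 were lower.

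Synaptic adhesion genes had 4 of 23 at least 2-fold higher and 0 lower: Il1rapl2, an organiser of synapses (log2 ratio 1.78, 1.61 to 1.95), Nxph1 (1.58, 1.49 to 1.66), Cntnap4 (1.45, 1.31 to 1.59) and Elfn1 (1.10, 0.63 to 1.53). Erbb4 stood at 3268.1 CPM in Lhx6 Sox6 nuclei and 2335.2 CPM in Adarb2-gated nuclei, below 2-fold. Among 7 peptide genes Sst was higher, at 92.0 CPM against 13.97 CPM in Adarb2-gated nuclei (2.72, 2.30 to 3.14), and Vip and Penk were lower. Vip, a peptide of caudally derived cells, stood at 5.42 CPM in Lhx6 Sox6 nuclei and 148.1 CPM in Adarb2-gated nuclei. Of 11 receptor genes, the delta-opioid receptor gene Oprd1 was higher (71.2 CPM, against 18.5 CPM in Adarb2-gated nuclei; 1.94, 1.53 to 2.36), and the cannabinoid receptor gene Cnr1 lower (44.1 and 280.7 CPM; -2.66, -3.08 to -2.29), with Npy1r. In the release list of 19 genes, Syt2 was higher (72.7 and 13.6 CPM; 2.41, 1.97 to 2.86) and Sv2c, Syt10, Sv2b, Unc13c and Cplx2 were lower.

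No gene of 3 lists was 2-fold apart: 26 genes of oxidative phosphorylation (median 0.14), 16 of Bcas2, the Prp19 complex and the spliceosome (0.07), and 4 of GABA synthesis and release outside the rule (0.17). Over all tested genes the share was 5.65%, so 0 in lists of these sizes is close to it and does not set them apart. Of 11 immediate early genes Fos was lower, of 11 perineuronal net and matrix genes Vcan, and of 7 calcium-binding genes Hpcal4 and Necab2. Other genes with large ratios were Utrn (2.14), the ubiquitin ligase gene Rnf144b (2.07), Slit2 (1.62), Kctd8 (1.58), an auxiliary subunit of GABA-B receptors, Cit (1.52), Coro6 (1.47) and Adgrl2 (1.42) among the higher, with the unnamed transcript 6330411D24Rik (1.91). Among the lower were Foxp2 (-3.64), Meis2 (-3.52), Rgs12 (-3.34), Doc2b (-3.14), Col6a1 (-3.13), Pbx3 (-2.44), Cadps2 (-2.43), Zfhx4 (-2.41) and Zfhx3 (-2.31).

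**Figure D4:**
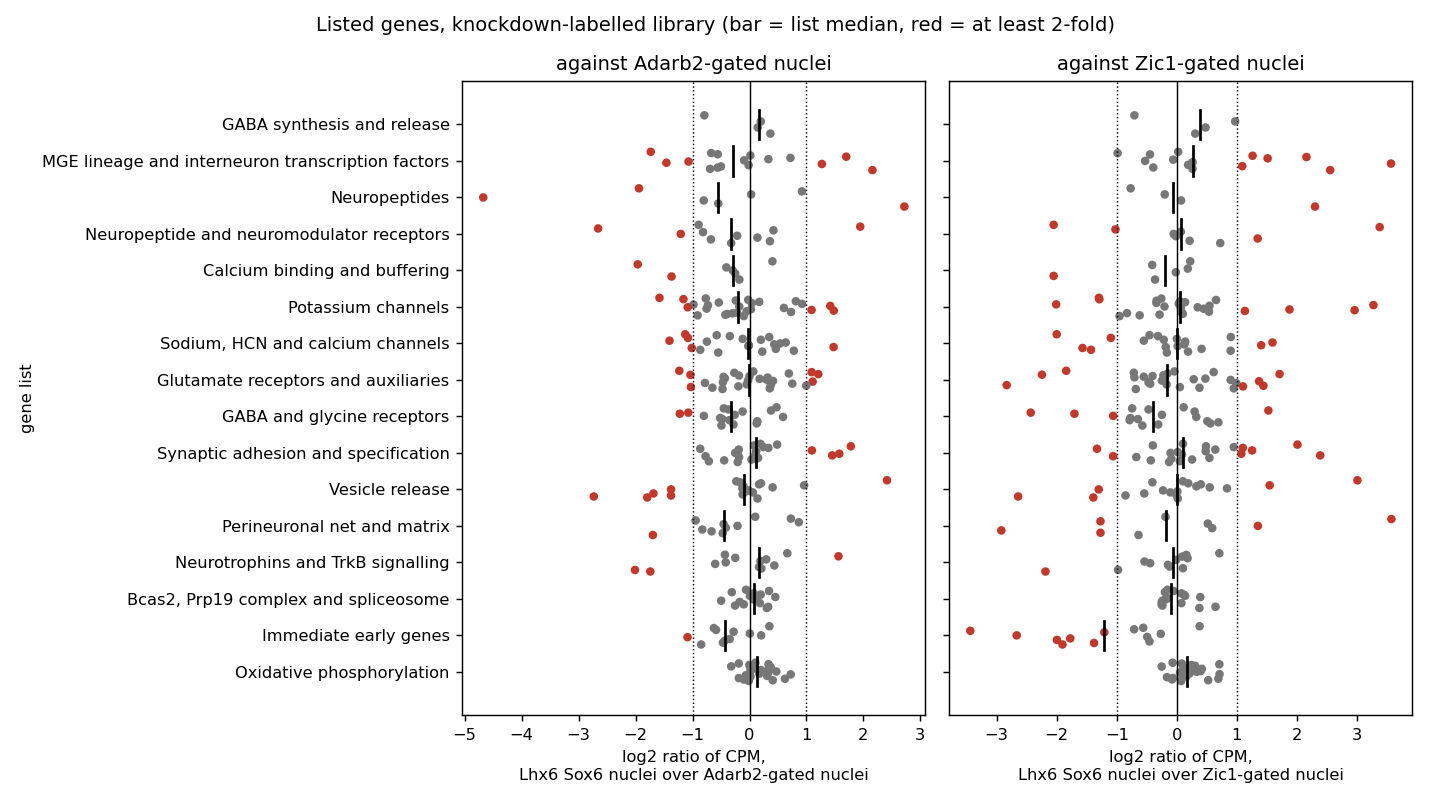
Log2 ratio of CPM of each tested gene (points) in 16 function lists (rows), Lhx6 Sox6 nuclei over Adarb2-gated nuclei (left) and over Zic1-gated nuclei (right), knockdown-labelled library; bars are list medians, dotted lines mark 2-fold and red points lie past it. None lie past it for the GABA synthesis, oxidative phosphorylation and spliceosome lists, and 7 immediate early genes lie below it on the right. Over all tested genes, 5.65% (left) and 8.99% (right) lie past it.

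Zic1-gated nuclei (571 nuclei, at least 1 Zic1 UMI, 5897441 UMIs) were further from the Lhx6 Sox6 nuclei. Of 8678 tested genes, 286 (3.3%) were at least 2-fold higher in Lhx6 Sox6 nuclei and 494 (5.69%) lower, 8.99% in either direction. Without sub-cluster 1, the numbers were 255 and 555 of 7143 genes, and 269 of the 286 and 460 of the 494 stayed past 2-fold. Of 15 lineage factors, 6 were higher, Maf, Satb1, Cux2, Zeb2 and Npas3 among them, and 0 lower. Maf stood at 282.3 CPM in Lhx6 Sox6 nuclei and 23.7 CPM in Zic1-gated nuclei (log2 ratio 3.57, 3.29 to 3.86). Kcnmb2 (3.28, 3.10 to 3.46), Kcnc2 (2.96, 2.86 to 3.07) and Kcnc1 (1.88, 1.68 to 2.07) were higher, with Kcnmb4, among 26 potassium channel genes, and Kcnq5, Kcnt2 and Kcnn3 lower. Erbb4 was higher here (2.01, 1.95 to 2.07), with Cntnap4 (2.39), Elfn1 (1.26), Nxph1 (1.08) and Slitrk3 among 23 adhesion genes, and Nlgn1 and Nrg1 were lower. Col19a1, a collagen of inhibitory synapse formation, stood at 629.6 CPM in Lhx6 Sox6 nuclei and 52.7 CPM in Zic1-gated nuclei (3.58, 3.39 to 3.77).

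Of 4 tested subcortical markers, 3 were at least 2-fold lower in Lhx6 Sox6 nuclei (Meis2, Zfhx3 and Pbx3), as were all 3 tested septal markers outside the rule (Prdm16, Zic4 and Trpc4). Isl1, a factor of striatal and cholinergic lineages, had 0 UMIs in Lhx6 Sox6 nuclei and 240 in Zic1-gated nuclei. Set at a floor of 3 UMIs it was 17.5-fold lower. Its counting interval ends at a log2 ratio of -3.82, which allows a smaller difference. Igfbpl1 had 0 and 403 UMIs and was 29.4-fold lower at that floor, with an interval that ends at -4.58 and likewise allows a smaller difference. Prdm16 stood at 4.64 CPM in Lhx6 Sox6 nuclei and 200.4 CPM in Zic1-gated nuclei (-5.32, -6.88 to -4.31), Meis2 at 27.1 and 532.3 CPM (-4.28, -4.82 to -3.82) and Zfhx3 at 24.0 and 440.9 CPM (-4.18, -4.76 to -3.69). Immediate early genes, which follow recent neuronal activity, had 7 of 13 at least 2-fold lower (Egr4, Junb, Egr3, Fos, Arc, Egr1 and Npas4) and 0 higher, with a list median of -1.21. Fos stood at 14.7 CPM in Lhx6 Sox6 nuclei and 51.6 CPM in Zic1-gated nuclei. Inhibitory cluster 11, whose leading genes include Egr3, Fosb, Fos and Npas4, held 27 of the 571 Zic1-gated nuclei and 0 Lhx6 Sox6 nuclei. Against the 544 Zic1-gated nuclei outside it, 6 of the 13 were lower, Junb no longer among them, with a list median of -0.93, and Fos stood at 36.7 CPM in those nuclei. None of 16 spliceosome genes (median -0.10) or 25 oxidative phosphorylation genes (0.16) passed 2-fold. With a share of 8.99% over all tested genes, lists of these sizes would hold few such genes.

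Bcas2, the targeted gene, encodes a subunit of the Prp19 splicing complex. In the Lhx6 Sox6 nuclei it had 58 UMIs, 0 to 3 per nucleus, in 46 of 111 knockdown-labelled nuclei, and 1, 1, 0, 1 and 1 UMIs in the 5 control nuclei. Its level was 44.9 CPM (34.1 to 58.0) in knockdown-labelled nuclei, against 45.3 CPM (12.4 to 116.1) in control nuclei, at a log2 ratio of -0.17 (-1.45 to 1.91) with 0.5 UMI added to each sum. A difference was not detectable at this depth, and a 3' count need not reflect the part between the loxP sites. In Adarb2-gated nuclei Bcas2 stood at 44.9 CPM in the knockdown-labelled library, against 36.7 CPM in the control. A synapsin-driven Cre acts in neurons, and the share of these interneurons that carried virus was not found in the labels.

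The comparison of the libraries rests on 5 control nuclei with 88229 UMIs. Of 673 tested genes, 39 (5.79%) were at least 2-fold higher in the knockdown-labelled library and 24 (3.57%) lower, 9.36% in either direction, with a median log2 ratio of -0.02. Scaled by TMM, which moved the median by 0.20, the numbers were 56 higher and 12 lower, so the higher genes made up 82.4% of the 2-fold genes, against 61.9% without it. When all nuclei of clusters 1, 2 and 4 were compared instead (407 knockdown-labelled and 9 control nuclei), 12 of the 39 and 4 of the 24 stayed past 2-fold. Without sub-cluster 1, 29 genes were higher and 15 lower of 475 tested. The nuclei also differed beside the labels: 4 of the 5 control nuclei had Pvalb, and summed oligodendrocyte markers stood at 238.2 CPM in the knockdown-labelled nuclei (0 to 26 UMIs per nucleus, median 2) and 804.7 CPM in the control nuclei (11 to 17 UMIs, median 15). Their part in the result was not tested. The first control nucleus had 0 UMIs of Nxph1, and the second held more UMIs than the others. Without the second, 23 genes were higher and 16 lower of 344 tested, and without each of the others 33 to 39 were higher and 22 to 27 lower.

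Between the libraries, the genes with the largest ratios included receptor, adhesion and matrix genes, and their ratios between Sst and Pvalb nuclei of the knockdown-labelled library are set beside them. Those nuclei enter both comparisons, and a single UMI of Sst or Pvalb was enough to place them. Reln had 0 to 36 UMIs per knockdown-labelled nucleus (median 0) and 1, 0, 0, 3 and 0 in the control nuclei, 278.5 CPM against 45.3 CPM (log2 ratio 2.45, 1.25 to 4.50). Neto1, an auxiliary subunit of kainate receptors, had 0 to 37 UMIs per knockdown-labelled nucleus (median 2) and 1, 0, 1, 6 and 0 in the control nuclei (1.88, 0.98 to 3.19). Each was also higher in Sst than in Pvalb nuclei within the knockdown-labelled library, by 3.15 and 1.68 on the log2 scale. The fourth control nucleus, the only one with Sst, had the most UMIs of both. Of other genes higher in Sst nuclei, Kirrel3 had 2, 7, 0, 1 and 3 UMIs in the 5 control nuclei. Col19a1 had 0, 4, 1, 0 and 17, and C130073E24Rik 5, 2, 2, 3 and 0. The part of Sst and Pvalb make-up in the ratios between the libraries was not tested.

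Cacna2d3, an auxiliary calcium channel subunit (2.74, 1.93 to 3.88), Kirrel3, an adhesion gene of the immunoglobulin superfamily (2.20, 1.47 to 3.17), the unnamed transcript C130073E24Rik (2.00, 1.24 to 3.02) and Nkain3 (3.05, 1.72 to 5.56, with 3 control UMIs) were also higher. Their log2 ratios of Sst over Pvalb nuclei were 2.14, 1.39, 1.28 and 2.08. With all nuclei of clusters 1, 2 and 4, the ratio between the libraries was -0.17 for Kirrel3 and -0.41 for Neto1, the opposite direction. Col25a1, a transmembrane collagen, had 361 UMIs in the knockdown-labelled nuclei and 1 in the control nuclei (4.04, 2.14 to 9.93), and a Sst over Pvalb log2 ratio of 1.16. Pcsk2, a prohormone convertase, had 0 to 26 UMIs per knockdown-labelled nucleus (median 2) and 1, 0, 0, 1 and 0 in the control nuclei (3.32, 1.78 to 6.69), with 0.20 (-0.23 to 0.63) between Sst and Pvalb nuclei. Tenm3, a teneurin of synaptic adhesion, had 0 to 79 (median 9) and 7, 6, 0, 4 and 5 (2.39, 1.82 to 3.10), with -0.58 between Sst and Pvalb nuclei. The groups overlapped for both genes.

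On the lower side, Erbb4 had 0 to 170 UMIs per knockdown-labelled nucleus (median 30) and 1, 419, 161, 14 and 106 in the control nuclei, 3268.1 CPM against 7945.2 CPM (-1.28, -1.40 to -1.16). The second control nucleus carried 59.8% of the control UMIs, and without it the log2 ratio was -0.63 (-0.80 to -0.45). Zfp804a had 0 to 29 UMIs (median 2) and 87, 1, 23, 0 and 11 (-2.03, -2.32 to -1.73), Cdh18 0 to 39 (median 2) and 66, 19, 0, 0 and 8 (-1.78, -2.10 to -1.43), and Slit2 0 to 16 (median 1) and 0, 50, 0, 0 and 7 (-1.37, -1.77 to -0.92). A single control nucleus held 71.3%, 71.0% and 87.7% of the control UMIs of these 3 genes. Without the first, the ratio was -0.60 (-1.08 to -0.05) for Zfp804a and -0.37 (-0.91 to 0.27) for Cdh18, and without the second, that of Slit2 turned to 0.91 (-0.05 to 2.33). Kcnip1, a potassium channel interacting protein, was spread more evenly, with 0 to 17 (median 2) in knockdown-labelled nuclei and 28, 5, 9, 10 and 10 in the control nuclei (-1.63, -2.02 to -1.20), as was the malic enzyme gene Me3, with 0 to 12 (median 2) and 13, 6, 12, 3 and 16 (-1.31, -1.73 to -0.84). Their ratios stayed at -1.13 or below for Kcnip1 and -1.01 or below for Me3 without any 1 control nucleus. Sdk1, Cntnap5c, Prkg1 and Kazn had log2 ratios between -1.49 and -1.24. Without the second control nucleus they were -0.40 for Sdk1, -0.52 for Prkg1 and -0.51 for Kazn, and without the third, -1.03 for Cntnap5c. Between Sst and Pvalb nuclei, Cntnap5c was level, at 0.06 (-0.29 to 0.41). The other lower genes were lower in Sst nuclei too: Slit2 -2.47, Erbb4 -2.005, Kazn -1.62, Sdk1 -1.16 and Zfp804a -1.075. Me3 was at -1.02, Prkg1 at -0.78, Cdh18 at -0.69 and Kcnip1 at -0.49.

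**Figure D5:**
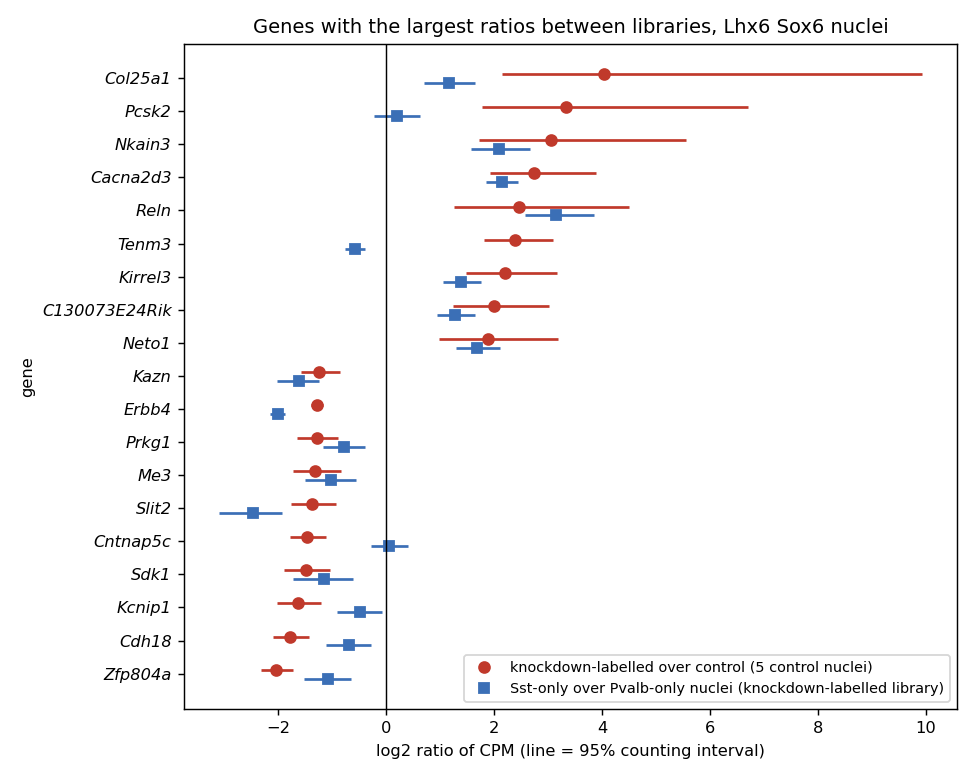
Log2 ratio of CPM (points) with 95% counting interval (lines) for genes named for their ratio between the libraries, knockdown-labelled over control Lhx6 Sox6 nuclei (circles) and, for the same genes, Sst over Pvalb nuclei within the knockdown-labelled library (squares). Reln lies at 2.45 and 3.15 in the 2 ratios, Tenm3 at 2.39 and -0.58, and Erbb4 at -1.28 and -2.005.

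By list, 3 of 17 tested glutamate receptor genes were at least 2-fold higher in the knockdown-labelled library, Grm7 and Neto1 among them, and 0 lower, with a median of 0.35. Of 4 matrix genes, Col19a1, Col25a1 and Reln were higher. Of 12 potassium channel genes Kcnip1 was lower, of 15 adhesion genes Ptprd was higher and Erbb4 lower, and of 6 GABA receptor genes Gabrg3 was lower (-1.01, -1.22 to -0.80). Gabrg3 had 16, 133, 28, 4 and 33 UMIs in the control nuclei, and without the second of them the ratio was -0.28 (-0.59 to 0.07). Grm7 had 11, 1, 2, 10 and 1, and 0.76 without the second. Grm7, Col19a1 and Reln were higher, and Erbb4 and Gabrg3 lower, in Sst than in Pvalb nuclei as well, with log2 ratios of 1.97, 1.58, 3.15, -2.005 and -2.24. Ptprd was not, at -0.16 (-0.32 to 0.01) between Sst and Pvalb nuclei.

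The neurotrophin pathway named in the title was measured with few genes at this depth. Ntrk2, which encodes TrkB, had a UMI in all 111 knockdown-labelled nuclei and in all 5 control nuclei, at 734.1 CPM (688.1 to 782.3) in knockdown-labelled nuclei, against 952.1 CPM (759.4 to 1178.7) in control nuclei (log2 ratio -0.38, -0.70 to -0.04), below 2-fold. The 5 control nuclei had 7, 48, 10, 6 and 13 UMIs of it, and without the second the control level was 645.8 CPM and the ratio 0.17 (-0.29 to 0.71), the opposite direction. Ntrk3, the receptor gene of neurotrophin-3, stood at 546.1 and 1224.1 CPM in that order (-1.17, -1.46 to -0.86), and at -1.09 between Sst and Pvalb nuclei. It was the only 1 of 3 tested pathway genes past 2-fold. The control nuclei had 2, 73, 20, 0 and 13 UMIs of Ntrk3, and without the second the control level was 627.9 CPM and the ratio -0.22 (-0.69 to 0.33). Bdnf had 17 UMIs in 9 of the 111 knockdown-labelled nuclei (13.2 CPM, 7.66 to 21.0) and 0 in the 5 control nuclei, where a floor of 3 UMIs is 34 CPM. At 2000 UMIs per nucleus its share was 1.80% in Lhx6 Sox6 nuclei and 4.40% in oligodendrocyte-gated nuclei. Background and expression of Bdnf cannot be told apart from these shares. Against Adarb2-gated nuclei, 2 of 13 tested pathway genes were at least 2-fold lower, the sorting receptor genes Sorcs1 and Sorcs3.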

How the data were processed

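For 2 libraries the authors deposited raw UMI counts of each gene in each barcode, with no scaling, and per the file headers Cell Ranger 9.0.1 wrote them. Besides it, the submitters' processing notes name Seurat 4.1.0 and the build GRCm39. How introns were counted and barcodes called was not found in the labels or headers. No coordinates or sequences are printed, since the reference used here is of another build. Of 55357 genes, 901 symbols are repeated.

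From these counts, nuclei were filtered and gated as stated. The nuclei and the gene lists were chosen with earlier results of these data known. Sums of UMIs were scaled to CPM, and log2 ratios had 0.5 UMI added to each sum. A gene was tested when its pooled level predicted at least 20 UMIs in the smaller sum, and called at 2-fold. Intervals (95%) are exact: Clopper-Pearson for shares, Poisson for levels and conditional binomial for ratios. The genes named were the 15 highest and 15 lowest ratios with at least 200 UMIs and detection in 20% of nuclei where higher. Between libraries they were the 10 highest and 10 lowest with at least 100 knockdown-labelled UMIs (20 in the control where higher there), detection in 10% and a level of at least 0.25 of that in every gated population of the same library. The 8 leading genes of each sub-cluster and all listed genes could also be named. Genes named only for their Sst over Pvalb ratio come from these sets.

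Sub-clusters came from scanpy 1.11.5 with igraph 0.11.9 (2000 variable genes, 20 components, 15 neighbours, Leiden resolution 1). Scrublet's own threshold marked 1046 knockdown-labelled nuclei and 2 (0.016%) control nuclei, so it had not worked, and the top scores were marked at the expected rate, 1464 and 1332 nuclei in that order. Marked nuclei were kept and left out only as an alternative. TMM factors came from edgeR 4.0.16 in R 4.3.3. The rest ran in Python 3.11.15 with scipy 1.17.1, scikit-learn 1.9.0, numpy 2.4.6 and pandas 2.3.3, and the ratio calculation was tested on simulated counts. Of the listed symbols, 3 were not found. Alternatives changed the filters, thresholds, scaling, depth and clustering. The use of all nuclei of clusters 1, 2 and 4, the removal of sub-cluster 1, of each control nucleus and of cluster 11 were chosen after seeing the data. Some genes that the rules name are not reported here.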

Additional observations from a re-analysis of the deposited data

How the results depend on the processing

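No paired analysis was possible because each group has 1 library and the values come from no test. The share of kept nuclei in the knockdown-labelled library (0.827%) was 0.665% with a looser nuclei filter, 1.00% with a stricter one (which kept the same 111 nuclei), 1.00% with Sox6 of at least 1 UMI, 0.663% with at least 3, and 0.618% with inhibitory genes of at least 5. Gating after thinning to 2000 UMIs left 0.0271% (3 nuclei), and 0.0104% (1 nucleus) in the control, so what the rule selects depends on depth. The thinned Sst share (17.1%) was 9.64% and the Pvalb share (11.7%) 4.82% with inhibitory genes of at least 5, and Pvalb 3.60% at 1000 UMIs. Genes at least 2-fold higher and lower than in Adarb2-gated nuclei (150 and 346) numbered 405 and 870 with at least 5 expected UMIs, 72 and 172 with at least 50, 51 and 118 after thinning, and 340 and 724 with all nuclei of clusters 1, 2 and 4. Against Zic1-gated nuclei (286 and 494) the numbers were 656 and 1081, 150 and 291, 97 and 192, and 631 and 915 in the same order of settings. Fewer genes are tested at higher minimums and after thinning. Between the libraries (39 and 24) they were 338 and 139, 9 and 7, and 1 and 1 under the expected-UMI and thinning settings. Lower genes alone numbered 12 with TMM, 15 without sub-cluster 1 and 8 with all nuclei of clusters 1, 2 and 4, where Kirrel3 (-0.17) and Neto1 (-0.41) reversed. Leaving out each control nucleus in turn gave 23 to 39 higher and 16 to 27 lower genes, with Slit2 between -1.73 and 0.91, reversed without the second. The cause was not tested. Of the values of named genes under other settings, 57 of 330 against Adarb2-gated nuclei, 37 of 360 against Zic1-gated nuclei and 49 of 320 between the libraries moved beyond their counting interval without reversing. Pvalb basket-like nuclei (35.3%) were 23.3% at resolution 2 and 24.5% with Scrublet-marked nuclei removed, and the Sst-like share stayed within its interval under both. The 5 control nuclei limit the library comparison: a gene with 0 UMIs there has a floor of 3 UMIs, 34 CPM.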
